A study of Mus musculus with 6 samples.

Results

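Nucleolar ribosome biogenesis factors are the proteins that make pre-ribosomal RNA, modify and cut it, and assemble it with ribosomal proteins. A set of 36 such genes was chosen by name from a table of 19832 genes, and all 36 were found there and passed the filter on low values. They were read in EO771 cells, a mouse mammary tumour line, in 3 libraries of control cells and 3 libraries of cells treated with recombinant lipocalin-2 (LCN2), a secreted siderophore-binding protein. All libraries came from the same line. The labels name no genotype, dose, exposure time, vehicle or batch and do not say whether replicates were separate cultures. The p-values therefore set the group difference against the spread among these samples only, and some of that spread may be technical. The comparison asks how the transcripts of these genes differ when LCN2 is added.

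The nucleolus forms around ribosomal DNA, where RNA polymerase I makes a long precursor of the small and large subunit rRNAs. Small nucleolar ribonucleoproteins (snoRNPs) then methylate or pseudouridylate the precursor, and separate sets of factors, the small subunit processome and the pre-60S factors, fold and cut it. Genes of this pathway are widely expressed, tend to be high in proliferating and tumour cells, and are textbook targets of the transcription factor MYC.

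Values are FPKM (fragments per kilobase of transcript, scaled to library size, a unit inferred from the table) after scaling between libraries by the trimmed mean of M-values (TMM), called scaled FPKM here. Log2 fold changes subtract control from LCN2 on the log2(scaled FPKM + 1) scale and come from limma, fitted to the 10309 genes whose mean reached 1 FPKM. This scale understates changes of low genes, and most strongly those of genes near the limit of 1 FPKM. A gene was called, and is said to have risen or fallen, at a Benjamini-Hochberg adjusted p under 0.05 over all genes tested, two-sided. Column sums of the table were between 391569 and 410808 and the scaling factors between 0.970 and 1.06. The number of reads is unknown, so no counting intervals are given. The epithelial markers Krt8 (302 ± 8.69 scaled FPKM in control, SD, n = 3) and Krt18 (678 ± 7.51) were high and Epcam was at 16.0 ± 0.815, while Cdh1 was near 0 (0.137 ± 0.0375). These markers changed in both directions with LCN2, since Krt8 (log2 fold change -0.27, adjusted p = 0.0095) and Krt19 (-0.22, adjusted p = 0.022) fell and Krt18 (0.17, adjusted p = 0.032) and Krt14 (0.18, adjusted p = 0.04) rose. Of the markers of other cells that were in the table, all 5 of mast cells and all 4 of endothelium had means under 1 FPKM. Among 3 immune markers only Cd68 reached a mean of 1 FPKM over all libraries. Itgam was at 1.16 ± 0.157 scaled FPKM in control and 0.742 ± 0.114 with LCN2, below every control, and was not tested. Dcn, used here as a fibroblast marker, was abundant and rose from 493 ± 13.0 to 608 ± 22.9 scaled FPKM. Pdgfra, another fibroblast marker, was at 4.204 ± 0.472 in control and 3.69 ± 0.194 with LCN2 and was not called (-0.15, adjusted p = 0.23), and Col1a1 was too low to be tested (means 0.0571 and 0.106). Summed over each list, deposited FPKM was between 0.0338 and 0.111 in control and between 0.0524 and 0.153 in LCN2 libraries for mast cells, between 8.84 and 10.7 and between 9.54 and 10.3 for immune cells, between 489 and 545 and between 581 and 612 for fibroblasts (mostly Dcn), and between 0.255 and 0.472 and between 0.270 and 0.660 for endothelium. Cpa3, Fcer1a, Mcpt4, Tpsb2, Tek and the epithelial marker Pgr were listed at 0 in every library. Of 10 epithelial markers, 7 reached a mean of 1 FPKM. Krt5 was too low to be tested (means 0.640 in control and 0.793 with LCN2), and Esr1 was at 3.40 ± 0.244 scaled FPKM in control and was not called. What part the cells behind these markers have in the results was not tested.

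With LCN2, 13 of the 36 nucleolar genes rose, 1 fell and 22 were not called. Of all genes tested, 11.6% rose and 9.87% fell, against 36.1% and 2.78% of the members. This background was not matched for level. The median control level was 41.4 scaled FPKM for the members and 12.9 for all genes tested, and the median SE 0.05 and 0.07. The median log2 fold change of the members was 0.07, where that of all genes tested was 0.00, so the shifts were small. The largest rise was 36.3% of the control mean, in Nop14, and the fall, in Bop1, was 16.8%. The 3 LCN2 libraries lay above all 3 controls in 19 members and below them in 4, while over all genes tested the share above was 22.6% and the share below 21.8%. With values as deposited, 6 members rose and 2 fell (background 6.72% and 16.3%), the median of all genes moved to -0.056 and that of the members to 0.009. Scaled to column sums, 10 members rose and 1 fell (9.22% and 12.7%).

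**Figure D1:**
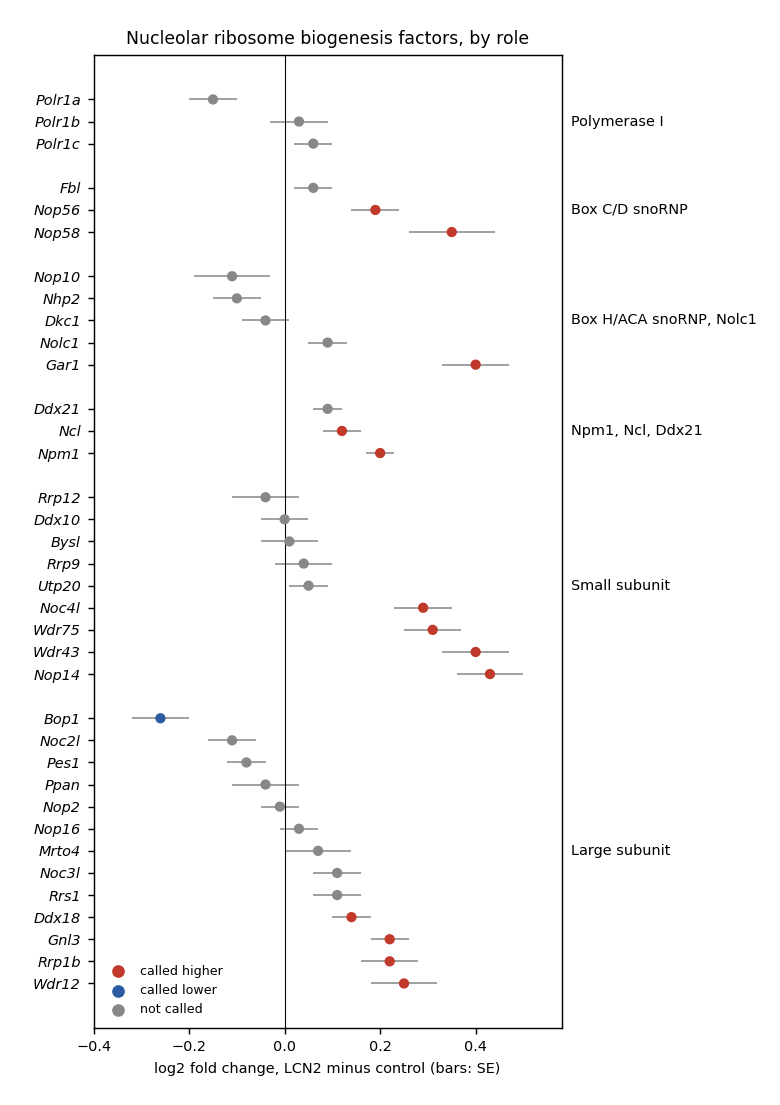
Log2 fold change (LCN2 minus control, x axis) with its SE for each of the 36 genes, grouped by role. Coloured points mark the 13 genes called higher and the 1 called lower, and the range runs from -0.26 (Bop1) to 0.43 (Nop14).

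The count of calls depended on which libraries were used. With LCN2 replicate 1 left out, limma called no member, where 1.69% of all genes were called higher and 0.864% lower. At an unadjusted p under 0.05, 13 members were higher and 1 lower in that fit. Its share of all genes at this looser threshold is not given here. With all libraries, 15 members were higher and 2 lower at an unadjusted p under 0.05, and 2065 and 1972 of all 10309 genes tested. Nop14 alone was called without control replicate 3 (background 2.71% higher and 1.48% lower) and without LCN2 replicate 3 (2.85% and 1.78%). With control replicate 1 left out, 5 members rose and 0 fell (3.94% and 2.1%), the rises being Wdr12, Gar1, Nop14, Wdr43 and Npm1. Leaving out control replicate 2 gave 9 rises and 1 fall (9.74% and 7.92%), and leaving out LCN2 replicate 2 gave 12 rises and 2 falls (15.8% and 14.8%). In each of the 13 rises all LCN2 libraries lay above all controls, and in Bop1 all lay below. Leaving out 1 library could therefore not turn the sign of these genes.

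**Figure D2:**
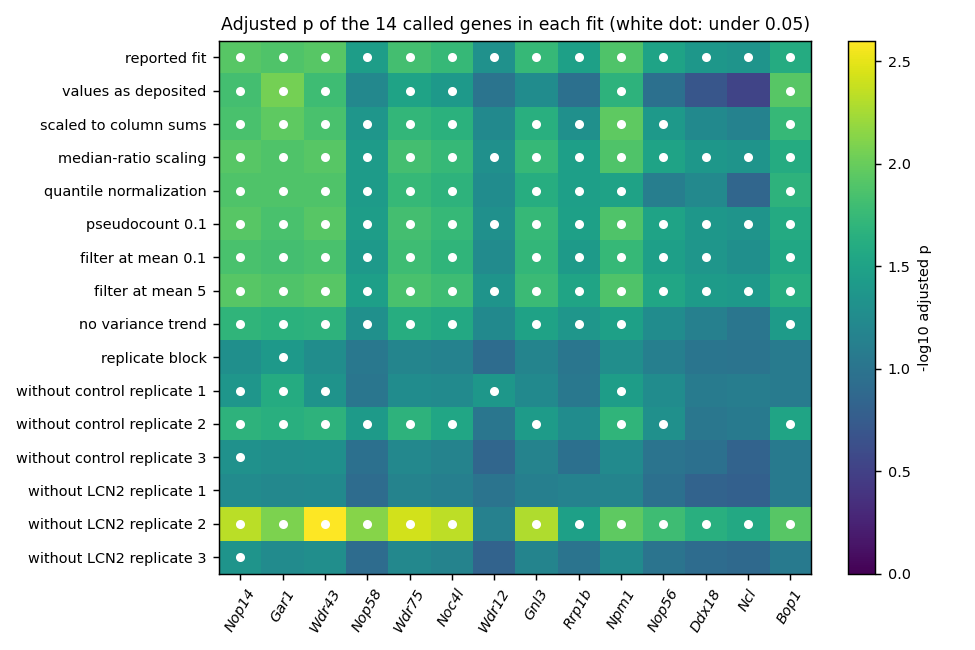
Adjusted p (colour, as -log10) of the 14 called genes (x axis) in the reported fit and each alternative fit (y axis). White dots mark an adjusted p under 0.05. The line without LCN2 replicate 1 has no dot, and Nop14 keeps its dot in all fits but that one and the one with the replicate number as a block.

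Treated libraries were not alike. LCN2 replicate 2 was the treated library nearest the control mean in 11 of the 13 risen genes and in 23 of the 36 members, and on the first principal component of all genes it lay at 4.33, between the other LCN2 libraries (15.7 and 16.5) and the controls (-17.3 to -8.09). Control replicate 1 was the highest control in 27 of the 36 members and control replicate 3 in 0. Such counts of nearest and highest libraries over all genes tested are not given here. The median of the members against their own control means was 0.046, -0.019 and -0.023 in control replicates 1 to 3 and 0.079, 0.059 and 0.083 in LCN2 replicates 1 to 3, on the log2 scale. The treated libraries therefore lay above every control on this median, but control replicate 1 was closer to them than to the other controls. The 36 transcripts summed to 3015, 2856 and 2888 scaled FPKM in the controls and to 3215, 3140 and 3221 in the LCN2 libraries. Npm1 made up 31.1% to 33.1% of these sums, and without it the controls were at 2072, 1967 and 1959 and the LCN2 libraries at 2157, 2099 and 2159.

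Levels of the 36 genes in control cells spanned from 9.82 ± 0.897 scaled FPKM (Rrp12) to 920.4 ± 28.0 (Npm1), with a median of 41.4. The abundant end held Npm1, Ncl, Nop56, Nhp2 and Fbl, the lowest library among them being at 152.6 scaled FPKM (Fbl). The low end held Rrp12, Ddx10, Wdr12, Polr1a and Polr1b, none of which passed 17 scaled FPKM in any library.

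**Figure D3:**
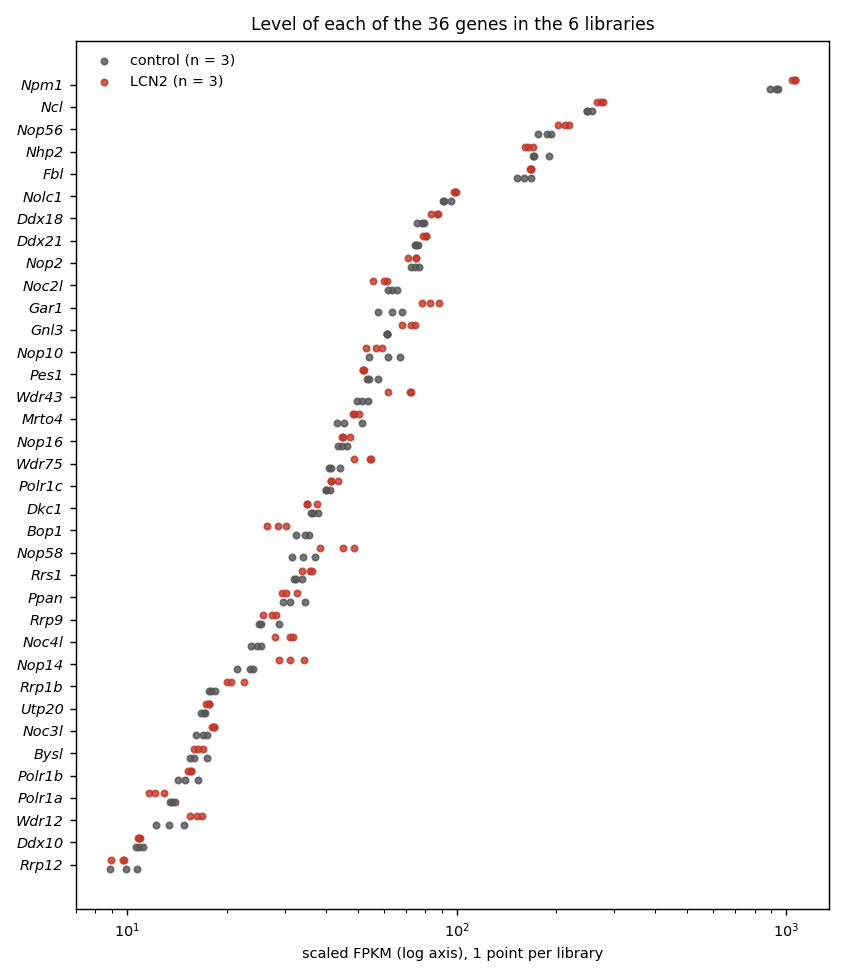
Scaled FPKM (log x axis) of each of the 36 genes, 1 point per library, ordered by the control mean. Grey points are the 3 controls and red points the 3 LCN2 libraries. The groups are apart for Gar1, Wdr43 and Nop14, and coincide for Ddx10.

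RNA polymerase I subunits gave no call among 3 members in limma, with 0 higher and 1 lower at an unadjusted p under 0.05. Over all 10309 genes tested, 2065 were higher and 1972 lower at that threshold. Polr1a encodes the largest catalytic subunit, Polr1b the other large catalytic subunit, and Polr1c a subunit shared with RNA polymerase III. Polr1a was at 13.97, 13.5 and 13.6 scaled FPKM in the controls and at 11.7, 12.9 and 12.1 in the LCN2 libraries. All LCN2 values lay below all controls, and the log2 fold change of -0.15 (SE 0.05) did not pass (adjusted p = 0.074). It did pass with values as deposited and without LCN2 replicate 2. Polr1b was at 16.4, 14.95 and 14.3 in the controls and at 15.2, 15.6 and 15.6 with LCN2, within the control range. Polr1c was at 40.1, 41.2 and 40.0 against 43.7, 41.5 and 41.6, slightly above every control without passing (0.06, SE 0.04, adjusted p = 0.30).

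Of the 3 box C/D snoRNP core proteins, which bind guide RNAs for 2′-O-methylation of rRNA, the scaffold pair rose and the methyltransferase did not pass. Nop56 was at 193, 187 and 176 scaled FPKM in the controls and at 219, 203 and 214 with LCN2 (log2 fold change 0.19, SE 0.05, adjusted p = 0.031). Nop58 was at 34.2, 37.0 and 31.6 in the controls and at 48.7, 38.5 and 45.1 with LCN2 (0.35, SE 0.09, adjusted p = 0.036). LCN2 replicate 2 of Nop58 was close to control replicate 2, and the other 2 treated libraries were well above. Fbl, the methyltransferase fibrillarin, was at 168, 153 and 160 in the controls and at 168, 167 and 167 with LCN2, so that control replicate 1 was as high as the treated libraries (0.06, SE 0.04, adjusted p = 0.30). Among the fits that left out 1 library, Nop56 and Nop58 were called only when that library was control 2 or LCN2 2 (adjusted p otherwise up to 0.11 and 0.12), and neither was called with values as deposited. Nop56 was not called after quantile normalization (0.077) or without a variance trend (0.055) either.

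The box H/ACA snoRNP, which pseudouridylates rRNA, has the pseudouridine synthase dyskerin (Dkc1) and the small proteins Nop10, Nhp2 and Gar1. One member of this complex rose while the other 3 were not called. Gar1 was at 68.2, 57.4 and 63.4 scaled FPKM in the controls and at 83.0, 78.3 and 88.1 with LCN2 (log2 fold change 0.40, SE 0.07, adjusted p = 0.013). Every treated library was above every control by at least the control SD of 5.37. Dkc1 had 36.9 ± 1.03 in control and 35.9 ± 1.35 with LCN2 (SD, n = 3), overlapping groups. Nhp2 was at 190.5, 171 and 169.9 against 164, 170.2 and 161, where LCN2 replicate 2 overlapped the controls. Nop10 was at 67.2, 54.1 and 61.7 against 52.9, 56.8 and 59.1, with a wide control spread (-0.11, SE 0.08, adjusted p = 0.35). Nolc1, a phosphoprotein that chaperones snoRNPs, was at 96.2, 91.2 and 90.6 against 98.8, 98.0 and 99.3, above every control but not called (0.09, SE 0.04, adjusted p = 0.13). Gar1 was called under every alternative scaling, filter and pseudocount, but not with control 3, LCN2 1 or LCN2 3 left out (largest adjusted p 0.061).

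Npm1, Ncl and Ddx21 encode abundant RNA-binding proteins of the nucleolus. Npm1, nucleophosmin, a histone and ribosome chaperone of the granular layer, was at 943, 889 and 929 scaled FPKM in the controls and at 1058, 1041 and 1063 with LCN2 (log2 fold change 0.20, SE 0.03, adjusted p = 0.013). The treated libraries were close together, with an SD of 11.5 against 28.0 in control, and all were above the controls. Ncl, nucleolin, which binds nascent pre-rRNA, was at 257, 248 and 248 against 278, 267 and 275 (0.12, SE 0.04, adjusted p = 0.045). Its groups did not overlap, but the rise was 8.87% of the control mean, the smallest among called genes, and the call was lost under 3 other scalings, values as deposited, column sums and quantile normalization, with a looser filter of 0.1 FPKM (adjusted p = 0.051) and without a variance trend (0.096). Ddx21, an RNA helicase of rDNA transcription and rRNA processing, was at 75.1, 76.4 and 74.5 against 80.3, 79.1 and 80.6, apart from the controls by more than the SD of either group but not called (0.09, SE 0.03, adjusted p = 0.11). Npm1 was not called with control 3, LCN2 1 or LCN2 3 left out (largest adjusted p 0.067), and Ncl kept its call only with LCN2 2 left out (otherwise up to 0.16). Npm1 has 1 annotated near-identical copy, Gm5611, and the table cannot show how reads of such copies were shared.

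Small subunit factors held the largest single rise, that of Nop14. Of 9 members 4 rose (44.4%) and none fell, beside 11.6% and 9.87% of all genes tested. The median change was 0.05 on the log2 scale. At an unadjusted p under 0.05, 4 were higher and 0 lower, beside 2065 and 1972 of all 10309 genes. Nop14, which carries early maturation of the small subunit with Noc4l, was at 21.6, 24.0 and 23.6 scaled FPKM in the controls and at 31.1, 28.8 and 34.5 with LCN2 (0.43, SE 0.07, adjusted p = 0.012). Noc4l itself was at 24.7, 25.4 and 23.8 against 31.2, 28.1 and 31.9 (0.29, SE 0.06, adjusted p = 0.018). In each of these binding partners the lowest treated library, replicate 2, was still above the highest control.

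Wdr43 and Wdr75 encode subunits of the UTP-A complex (t-UTP), the part of the processome that joins the nascent transcript first. Wdr43 was at 49.6, 53.9 and 51.7 scaled FPKM in the controls and at 72.3, 61.8 and 72.7 with LCN2 (0.40, SE 0.07, adjusted p = 0.012). Wdr75 was at 41.0, 44.3 and 41.6 against 54.6, 48.8 and 55.0 (0.31, SE 0.06, adjusted p = 0.015). The values of LCN2 replicates 1 and 3 nearly coincided in both genes, with replicate 2 between them and the controls. Wdr43 was not called with control 3, LCN2 1 or LCN2 3 left out (largest adjusted p 0.059), Wdr75 and Noc4l not with any of these or control 1 left out (largest over the 4 fits 0.068 and 0.076), and Nop14 only lost its call with LCN2 1 left out (0.056).

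The other 5 small subunit factors stayed within 0.05 of 0 on the log2 scale. They are Utp20, a large processome scaffold (0.05), Rrp9, the U3 snoRNP protein (0.04), Bysl, which acts late on the pre-40S particle (0.01), the helicase Ddx10 (0.00) and the export factor Rrp12 (-0.04). Ddx10 showed the tightest match, with 10.8 ± 0.265 scaled FPKM in control and 10.8 ± 0.0749 with LCN2. The signs of Bysl, Rrp9 and Utp20 turned with values as deposited.

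Of the 13 large subunit factors, 4 rose (30.8%) and 1 fell (7.69%), beside 11.6% and 9.87% of all genes tested. Their median change was 0.07 on the log2 scale. Within PeBoW, the trimer of Pes1, Bop1 and Wdr12 needed for processing of the large subunit rRNAs, the transcripts differed in direction. Bop1 was at 35.7, 32.5 and 34.7 scaled FPKM in the controls and at 28.7, 30.3 and 26.6 with LCN2 (-0.26, SE 0.06, adjusted p = 0.025). Wdr12 was at 14.9, 13.3 and 12.2 against 15.5, 16.2 and 16.8 (0.25, SE 0.07, adjusted p = 0.048). Pes1 was at 57.8, 53.2 and 54.3 against 52.1, 52.0 and 52.0, below every control but not called (-0.08, SE 0.04, adjusted p = 0.21). All 3 genes had groups that did not overlap. Over all genes tested, the LCN2 libraries lay above all controls in 22.6% and below them in 21.8%. The fall of Bop1 was called under all 5 scalings run, but among the fits with 1 library left out only when that was control 2 or LCN2 2 (adjusted p otherwise up to 0.085). Wdr12 was called with control 1 left out and in no other such fit (up to 0.15), and it lost its call with values as deposited, column sums and quantile normalization, with a looser filter of 0.1 FPKM (0.056) and without a variance trend (0.059).

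Gnl3, nucleostemin, a nucleolar GTPase enriched in stem and tumour cells, was at 61.6, 61.4 and 61.2 scaled FPKM in the controls and at 72.4, 68.0 and 74.8 with LCN2 (0.22, SE 0.04, adjusted p = 0.018). The 3 controls had a coefficient of variation of 0.26%. Rrp1b, a relative of the processing factor Rrp1, was at 18.0, 18.4 and 17.7 against 20.1, 20.6 and 22.7 (0.22, SE 0.06, adjusted p = 0.033), and the helicase gene Ddx18 at 79.4, 75.9 and 78.2 against 87.8, 83.4 and 86.8 (0.14, SE 0.04, adjusted p = 0.042). Both had all treated libraries above all controls. With 1 library left out, Gnl3 was called only when that was control 2 or LCN2 2 (adjusted p otherwise up to 0.076), and Rrp1b and Ddx18 only when it was LCN2 2 (up to 0.11 and 0.15). None of these 3 was called with values as deposited, and Ddx18 was not called scaled to column sums (0.059), after quantile normalization (0.06) or without a variance trend (0.074) either. Near-identical copies of Ddx18 are annotated as AC122481.1 and Gm16433.

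Among the 8 large subunit factors not called, Noc2l, a partner of Noc3l in pre-60S transport, was at 65.9, 62.0 and 63.4 scaled FPKM against 61.3, 60.3 and 55.8, just below the controls (-0.11, SE 0.05, adjusted p = 0.15). Noc3l pointed the other way at 16.9 ± 0.638 in control and 18.2 ± 0.117 with LCN2 (0.11, adjusted p = 0.13). Nop2, the rRNA cytosine methyltransferase, was at 76.5, 72.3 and 74.6 against 71.0, 75.2 and 75.0, within the control range but for LCN2 replicate 1. The assembly factor Rrs1 (0.11), Mrto4, which holds the place of the stalk protein during assembly (0.07), and the pre-60S factors Nop16 (0.03) and Ppan (-0.04) make up the rest with Pes1. Of these 4, Rrs1 alone had groups that did not overlap.

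**Figure D4:**
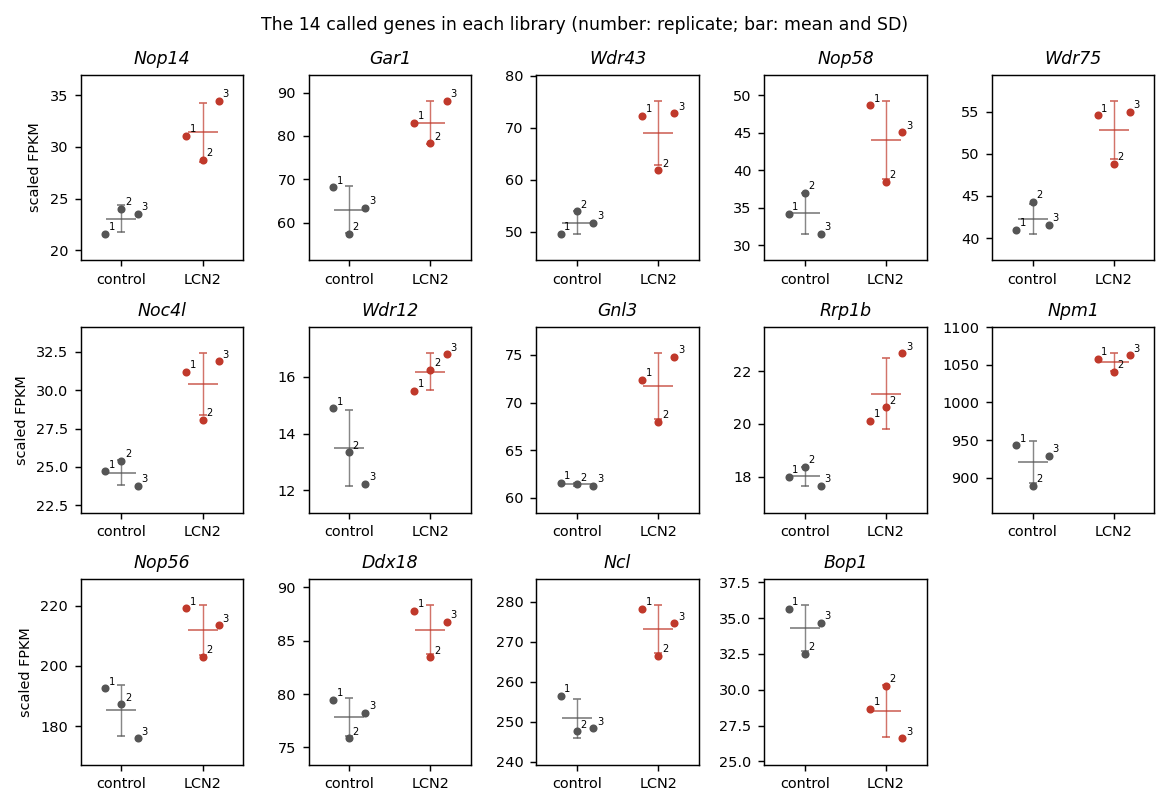
Scaled FPKM of the 14 called genes in each library (y axes differ and do not start at 0), with the mean and SD (n = 3) of control and LCN2. Numbers are replicates. In 13 panels all LCN2 points are above all controls, in Bop1 all are below, and replicate 2 is the LCN2 point nearest the controls in 12 of the 14.

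The genes were described further by features that did not enter their choice. Of the 36, 7 hold genes for snoRNAs or small Cajal body RNAs inside their span on the same strand in GENCODE M21 (19.4%, against 2.01% of 10304 tested genes found there), 21 such RNA genes in all. They are Nop56, Nop58, Ncl, Wdr43, Gnl3, Dkc1 and Ppan, so some genes of the snoRNP machinery also carry snoRNAs. Of these 7 hosts 5 rose and 0 fell (median log2 fold change 0.19), and of the other 29 members 8 rose and 1 fell (median 0.06). Over all genes tested 11.6% rose and 9.87% fell. The share called among all 207 tested genes that hold such RNA genes is not given here. The difference between hosts and others was not tested. The intronic RNAs themselves were not analysed here.

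Exons of 15 members overlap those of another annotated gene, on either strand, other than a snoRNA or small Cajal body RNA. The table cannot separate reads from such overlaps. Among called genes these are Nop14 (GRCm38 chromosome 5, 34638536 to 34660148, overlapping Gm15522), Wdr43 (chromosome 17, 71615895 to 71659031, CT010429.2), Nop56 (chromosome 2, 130274430 to 130279313, Idh3b), Gnl3 (chromosome 14, 31012433 to 31019152, Pbrm1), Wdr12 (chromosome 1, 60069785 to 60098645, Carf), Rrp1b (chromosome 17, 32036100 to 32062865, Hsf2bp), Bop1 (chromosome 15, 76452989 to 76477277, Mroh1) and Ncl (chromosome 1, 86344719 to 86359400, mmu-mir-3535). Gar1 (chromosome 3, 129824912 to 129831396), Wdr75, Noc4l, Nop58, Npm1 and Ddx18 have no such overlap.

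Myc, which encodes the transcription factor best known for driving these genes, was at 102, 136 and 126 scaled FPKM in the controls and at 205, 165 and 205 with LCN2 (log2 fold change 0.66, SE 0.12, adjusted p = 0.014). All treated libraries were above the controls, with replicate 2 lowest, and it was not called with control 3, LCN2 1 or LCN2 3 left out (largest adjusted p 0.065). The MYC-type E-box CACGTG, which reads the same on both strands, was searched in the 250 bases before the start site in RefSeq promoters of GRCm38.p6, where 31 of the 36 members matched by symbol. It was present in 1 of these 31 (3.23%), Nop2, and in 10.3% of 8284 tested genes with an entry. Over the whole 300-base window, which adds 50 bases after the start, 4 of 31 members held it (12.9%), Nop2, Pes1, Utp20 and Wdr43, against 12.3% of tested genes. A second motif, ACTTCCG with its reverse complement CGGAAGT, the core of many ETS-family sites, was added after the promoters were seen and does not overlap the first. In the 250 bases before the start it was in 4 of 31 members (12.9%), Gar1, Ddx21, Nhp2 and Polr1c, and in 12.9% of tested genes. Shares of all 32851 promoters were 6.02% for CACGTG and 4.92% for ACTTCCG in that window. No difference between these shares was tested, and a match describes the letters only.

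The 250 bases before the start are shown for Nop14 and Gar1, from the 3 largest rises, and for Nop2, the only promoter with the E-box in this window, whose transcript was not called. Capitals mark CACGTG in Nop2 and ACTTCCG in Gar1, and Nop14 has neither. Nop14 is at chr5:34660149-34660398 on the minus strand, Gar1 at chr3:129831397-129831646 on the minus strand and Nop2 at chr6:125131633-125131882 on the plus strand, all GRCm38.p6 from RefSeq, written 5′ to 3′.
Nop14: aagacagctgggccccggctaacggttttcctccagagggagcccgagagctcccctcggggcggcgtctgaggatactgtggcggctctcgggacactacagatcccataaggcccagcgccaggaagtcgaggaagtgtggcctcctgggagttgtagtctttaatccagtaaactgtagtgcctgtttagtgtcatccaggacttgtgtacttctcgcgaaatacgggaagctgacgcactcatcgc
Gar1: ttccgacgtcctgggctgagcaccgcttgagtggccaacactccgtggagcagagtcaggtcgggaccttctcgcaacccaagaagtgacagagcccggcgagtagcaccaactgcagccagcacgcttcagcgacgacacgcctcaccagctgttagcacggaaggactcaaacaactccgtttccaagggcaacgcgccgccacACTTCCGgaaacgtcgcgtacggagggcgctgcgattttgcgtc
Nop2: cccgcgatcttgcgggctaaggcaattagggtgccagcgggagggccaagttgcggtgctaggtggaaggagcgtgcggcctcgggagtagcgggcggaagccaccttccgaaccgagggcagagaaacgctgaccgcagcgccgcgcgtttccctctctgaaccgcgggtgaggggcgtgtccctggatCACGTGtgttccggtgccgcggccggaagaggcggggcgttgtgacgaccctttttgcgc
The motif starts 44 bases before the start site in Gar1 and 60 bases before it in Nop2.

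Other genes of the pathway were read from a list of 114 chosen by role, all of which were tested. Of these 14 rose (12.3%) and 8 fell (7.02%), at a median of 0.03 on the log2 scale, beside 11.6% and 9.87% of all genes. With values as deposited 4 rose and 14 fell (background 6.72% and 16.3%). Without LCN2 replicate 1 limma called none (background 1.69% and 0.864%). In that fit 20 were higher and 12 lower at an unadjusted p under 0.05, for which its share of all genes is not given here. Other polymerase I machinery, from the initiation factors Rrn3 and Ubtf to the small subunits, gave 0 calls among 17 genes (median -0.04), with 2 higher and 1 lower at an unadjusted p under 0.05. With all libraries, 2065 of all 10309 genes were higher and 1972 lower at that threshold. Other small subunit factors gave 9 rises and 5 falls among 48 (median 0.04). The highest ranked rises by adjusted p were the pre-rRNA processing factor Esf1, from 34.0 ± 1.78 to 45.9 ± 3.54 scaled FPKM (0.42, adjusted p = 0.010), Utp11 (0.26), Tsr1 (0.23) and Dnttip2 (0.22). Ddx49 (-0.35), Utp3 (-0.25), Ddx47 (-0.18) and Bms1 (-0.20) fell. Other large subunit factors gave 5 rises and 3 falls among 49 (median 0.03). Eif6, which keeps the subunits apart, rose from 165 ± 4.88 to 203 ± 17.4 scaled FPKM (0.29, adjusted p = 0.021), with the export adaptor Nmd3 (0.28), the ATPase Mdn1 (0.30) and Rsl24d1 (0.21), while Ddx24 (-0.32), Wdr55 (-0.23) and Ftsj3 (-0.19) fell. The calls of these lists also changed with the libraries, and the 14 rises became 2 with control 1 left out, 1 with either control 3 or LCN2 3 left out and 19 with LCN2 2 left out. The 8 falls became 14 with LCN2 2 left out, 7 with control 2 left out and 0 in the other 4 such fits.

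Cytosolic ribosomal proteins, which these factors assemble with rRNA, had a median log2 fold change of 0.09 over 82 genes, with 73 above 0. Limma called 3 rises (3.66%) and 0 falls, beside 11.6% and 9.87% of all genes tested. At an unadjusted p under 0.05, 20 were higher and 1 lower, beside 2065 and 1972 of all 10309 genes. The called genes were Rpl10a (0.28, adjusted p = 0.017), Rpl12 (0.26, adjusted p = 0.022) and Rpl3 (0.16, adjusted p = 0.044), and the count of rises was 11 with LCN2 2 left out, 0 with control 3, LCN2 1 or LCN2 3 left out and 1 with control 1 left out. Some short ribosomal protein transcripts varied widely within groups. Rps28 was at 214, 206 and 122 scaled FPKM in the controls and at 0.702, 20.6 and 95.6 with LCN2 (-3.53, adjusted p = 0.079), and Rpl17 at 68.6, 169.9 and 396 against 213, 458 and 416 (1.04, adjusted p = 0.23). No member of the nucleolar set varied this way, and their coefficients of variation within a group were at most 11.7%.

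**Figure D5:**
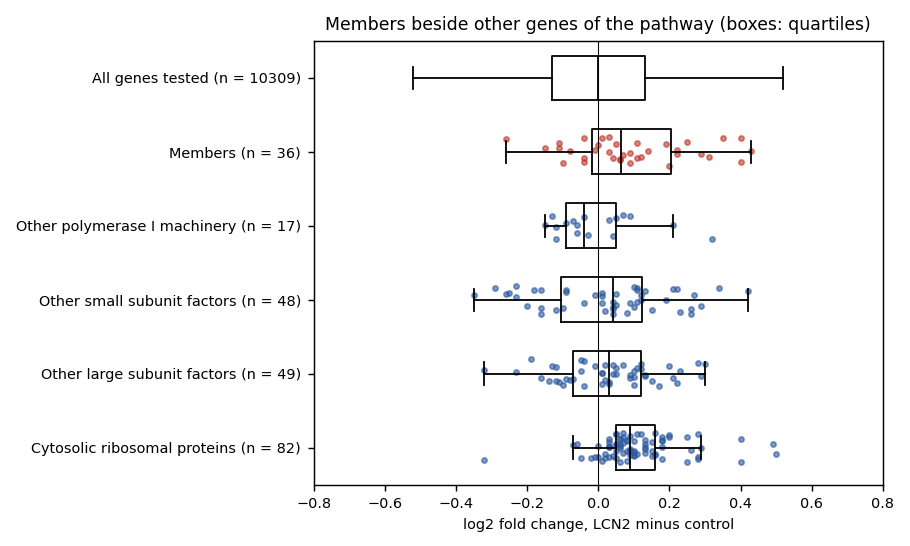
Log2 fold changes (x axis, LCN2 minus control) of all 10309 genes tested, the 36 members, and the other lists of the pathway. Boxes give the quartiles and the median, whiskers reach to the furthest value within 1.5 box lengths, and points are genes. Rps28 (-3.53) and Rpl17 (1.04) lie outside the axis. The members' median of 0.07 lies between those of the other small subunit factors (0.04) and the ribosomal proteins (0.09).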

How the data were processed

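RNA of 6 EO771 samples (3 control, 3 LCN2) was purified with an RNeasy kit and made into libraries with a SMARTer mRNA kit, per the labels' protocols. The authors deposited 1 table, on GRCm38 per the submitters' processing notes. Aligner, quantifier, versions and strand handling were not given in the sources used here. The table's name says raw counts, but 0% of values above 0 were whole (tolerance 1e-09), and they were treated as deposited FPKM, a unit inferred from the values. Depth could not be recovered, since in 15 pairs of libraries the commonest ratio among 919 to 1050 genes under 0.1 FPKM was shared by 4 to 8 genes (log2 tolerance 0.002). In 5744 genes all libraries were listed at 0.

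Values were scaled by TMM without count weights (trims 0.3 and 0.05). Limma 3.58.1 in R 4.3.3 was fitted to log2(scaled FPKM + 1) for the 10309 genes whose mean reached 1 FPKM, with a trend in the variance and without the replicate number. This fit called 1192 genes higher and 1017 lower, against 693 and 1680 with values as deposited and 950 and 1308 scaled to column sums. Means ± SD are of scaled FPKM (n = 3). Every adjusted p is from limma over all genes tested. Near-identical copies are other genes whose transcripts match at 95% identity over 50% of the longest coding transcript.

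All members are named. Values per library are given for called members, for the 2 most abundant of each role and for the 3 largest changes not called. Those of Pes1, Ddx21, Rps28 and Rpl17, and the promoters of Nop14 and Gar1, were added after their values were seen. From each other list up to 4 called genes per direction were taken, by adjusted p. The members, lists and tests were chosen with earlier results of these data known. Alternatives covered scaling, pseudocount, filter, variance model, a replicate block and each library left out. Groups of 3 are too small for a search for outlying samples.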

Additional observations from a re-analysis of the deposited data

How the results depend on the processing

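The 13 rises and 1 fall among the nucleolar genes became 6 and 2 with values as deposited and 1 and 0 with a replicate block, and lay between 0 and 12 and between 0 and 2 when 1 library was left out. Their median log2 fold change of 0.069 moved to 0.009 with values as deposited, 0.042 scaled to column sums and 0.044 after quantile normalization, and lay between 0.059 and 0.1 with 1 library left out. Over all genes, 1192 rises and 1017 falls became 693 and 1680 with values as deposited and 181 and 86 with the block, and lay between 174 and 1627 and between 89 and 1528 with 1 library left out. The other ribosome biogenesis genes gave 4 rises and 14 falls with values as deposited, 0 and 0 with the block and 5 falls without a variance trend, and between 0 and 19 rises and between 0 and 14 falls with 1 library left out. The ribosomal protein genes gave 7 rises after quantile normalization and 1 with the block, and between 0 and 11 rises and 0 and 1 falls with 1 library left out. The cause of these changes was not tested, though each fit without a library has fewer samples.

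The values gave no sign that the replicate numbers pair the samples, though groups this small cannot settle it. Deviations from the group means of same-numbered libraries correlated at -0.224, -0.261 and 0.009 across genes, and no library correlated best with its own number. Gar1 was the member still called with the block.

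Signs turned only in members near 0 that were not called. With values as deposited these were Utp20 (-0.01), Bysl (-0.05), Nop16 (-0.03), Polr1b (-0.03) and Rrp9 (-0.02), and scaled to column sums Bysl (-0.01). Over the fits that left out 1 library, Ppan lay between -0.09 and 0.02, Bysl between -0.02 and 0.06, Polr1b between -0.02 and 0.08, Rrp12 between -0.11 and 0.01, Nop2 between -0.03 and 0.01, and Ddx10 between -0.02 and 0.02.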
